A study of Mus musculus with 16 samples.

Results

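The 38 genes described here make cholesterol and fatty acids, control that synthesis, or respond to sterol excess and carry sterol out of the cell. They were followed through 16 RNA sequencing libraries of mouse bone marrow. The genes were listed by symbol, and each matched 1 row among the 45706 gene IDs of the deposited count table. The rule behind the list uses no measured value, but the list was chosen with earlier results of these data known. Shares of all genes set beside its counts below therefore describe the list and do not test it. The list holds 18 sterol synthesis enzymes (7 of the mevalonate steps and 11 of the steps from farnesyl diphosphate to cholesterol), the sterol carrier gene Stard4, 5 genes that control the SREBP transcription factors, 2 LXR receptor genes, 3 LXR targets (Abca1, Abcg1 and Mylip) and 9 genes of fatty acid synthesis and desaturation. All 38 passed the filter on low counts in every comparison.

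The series asks how blood formation fares when 1 copy of Gata2, a transcription factor gene of blood stem cells, is lost and the marrow is put under the demand of a transplant of few sorted cells. LSK cells, the marrow fraction that lacks lineage markers and carries Sca-1 and Kit, gave 2 libraries labelled Day0_WT, 3 Day0_Gata2, 3 Day2_WT and 2 Day2_Gata2. CD45.2 bone marrow cells gave 3 libraries labelled Week2_WT and 3 labelled Week2_Gata2. All libraries are labelled as bone marrow RNA, and 2 library kits are named, 1 of them stranded and 1 for low input, with no word on which library had which. The labels give no allele, strain, age or sex and do not state what happened to the LSK cells between Day0 and Day2. Nothing in them ties libraries to separate animals, so p-values cover the spread between libraries alone, and that spread may be technical.

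Libraries held 19.6 to 68.3 M counts at Day0, 51.7 to 54.8 M at Day2 and 177 to 320.7 M at Week2. Day0_WT replicate 1 was the shallowest and stood apart. It had 9.33% of its total on 4 repeat-rich genes against 2.80% to 6.51% in the other LSK libraries. That share also split by day, at 5.10% to 9.33% in the Day0 and 2.80% to 4.39% in the Day2 libraries. Genes with a count numbered 22150 to 30564 at Day0 and 19266 to 21944 at Day2. In the comparisons of Day2 with Day0, these traits of the libraries cannot be told apart from the day. The level of Gata2 did not fall with the Gata2 label: its ranges were 605 to 745 CPM (counts scaled to a common library total) against 328 to 428 in WT at Day0, 488 to 733 against 258 to 290.1 at Day2 and 9.83 to 24.9 against 10.5 to 16.1 at Week2. Directions by genotype below are therefore those of the labels. The defining LSK genes Kit and Ly6a (Sca-1) were at 471 to 708 and 54.1 to 69.5 CPM at Day0 and 407 to 652 and 19.5 to 32.2 CPM at Day2, whereas the Week2 libraries held 19595 to 79681 CPM summed over 8 neutrophil genes and 2783 to 4634 CPM over 6 B cell genes. The Y-linked gene Ddx3y was at 2.02 CPM or less in 2 of the 5 Day0 libraries, 0 of the 5 Day2 libraries and 1 of the 6 Week2 libraries, and at 29.7 CPM or more in the rest.

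Cells build cholesterol from acetyl-CoA through mevalonate, the isoprenoid farnesyl diphosphate, squalene and a long series of sterol intermediates. When sterol in the endoplasmic reticulum runs low, the escort protein Scap releases the SREBP proteins from the Insig anchors, and the freed SREBP fragments switch on the genes of sterol and fatty acid synthesis. When sterol accumulates, oxidised sterols activate the LXR receptors, which switch on the exporters Abca1 and Abcg1 and Mylip, an enzyme that marks lipoprotein receptors for degradation. Dividing cells draw on both synthesis and uptake to make new membrane.

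**Figure D1:**
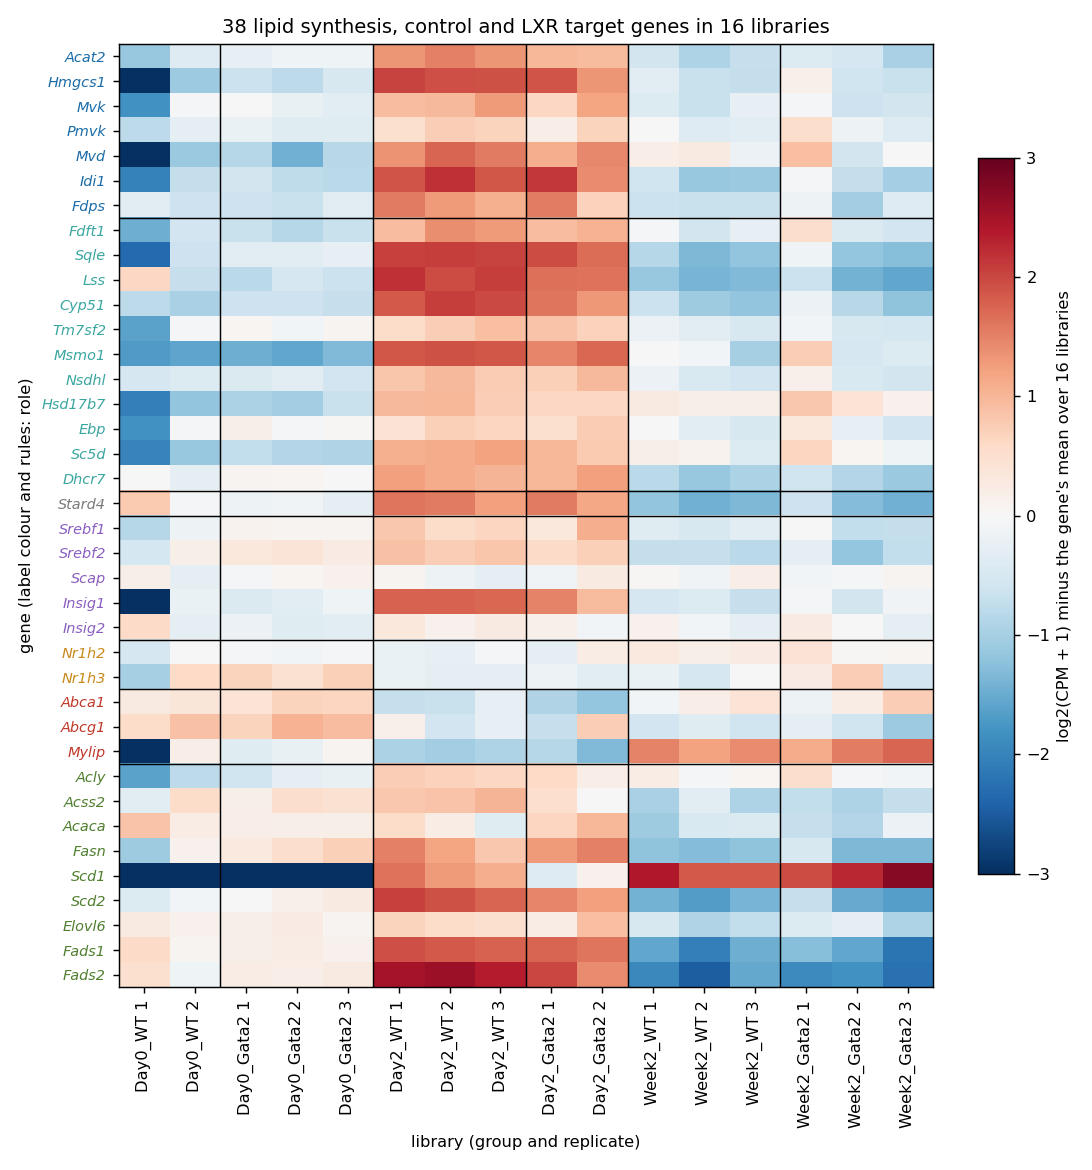
Level of each of the 38 genes (rows, grouped by role) in each of the 16 libraries (columns), as log2(CPM + 1) minus the gene's mean over all libraries, with the colour scale ending at -3 and 3. The 5 Day2 libraries stand above the 5 Day0 libraries for the 18 sterol synthesis genes at the top, and Scd1 is low in all 5 Day0 libraries.

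By the number of members called, the largest difference among these genes lay between Day0 and Day2 of the LSK cells. In WT, 28 of the 38 genes were higher at Day2 than at Day0 at an adjusted p under 0.05 and 1, Abca1, was lower (edgeR's quasi-likelihood test, adjusted over all 19162 genes tested). Over all those genes, 11.9% were called higher and 17.9% lower. All 18 sterol synthesis genes rose in WT, with a median log2 fold change of 2.19 against -0.11 over all genes tested. In the libraries labelled Gata2, 19 of the 38 were called higher and 1, again Abca1, lower, where 4.48% of all genes were called higher and 4.82% lower. There all 18 sterol synthesis genes had a positive log2 fold change and 14 were called higher, and the median of the 18 was 1.78 against -0.07 over all genes. Where a count of genes that rose or fell is given below, it counts calls. The 19 genes called higher in the libraries labelled Gata2 were all among the 28 of WT, which is 67.9% of the WT list and 100% of the other. These 2 comparisons share no library, although they share 1 estimate of the spread.

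The summed level of the 18 sterol synthesis genes was 239.6 to 407 CPM in the 5 Day0 libraries and 1338 to 1724 CPM in the 5 Day2 libraries, with no overlap. That of the 9 fatty acid genes was 747 to 1299 CPM at Day0 and 2289.5 to 3248 at Day2, also apart. For Abca1, Abcg1 and Mylip together it was 88.9 to 151 CPM at Day0 and 55.2 to 90.9 at Day2, where the ranges met through the low Day0_WT replicate 1 and the high Day2_Gata2 replicate 2. As a contrast of synthesis with the response to sterol excess, the mean log2(CPM + 1) of the 18 sterol genes minus that of the 3 LXR targets was -1.45 to -1.01 at Day0, 1.39 to 1.86 at Day2 and -1.43 to -0.40 at Week2. With the exporters Abca1 and Abcg1 alone, a split made after the values were seen, the difference was -2.09 to -1.25 at Day0, 1.11 to 1.81 at Day2 and -0.76 to 0.14 at Week2, above 0 at Week2 in Week2_Gata2 replicate 1 alone. In bulk RNA, a change in the make-up of the cells and a change in RNA per cell cannot be told apart.

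**Figure D2:**
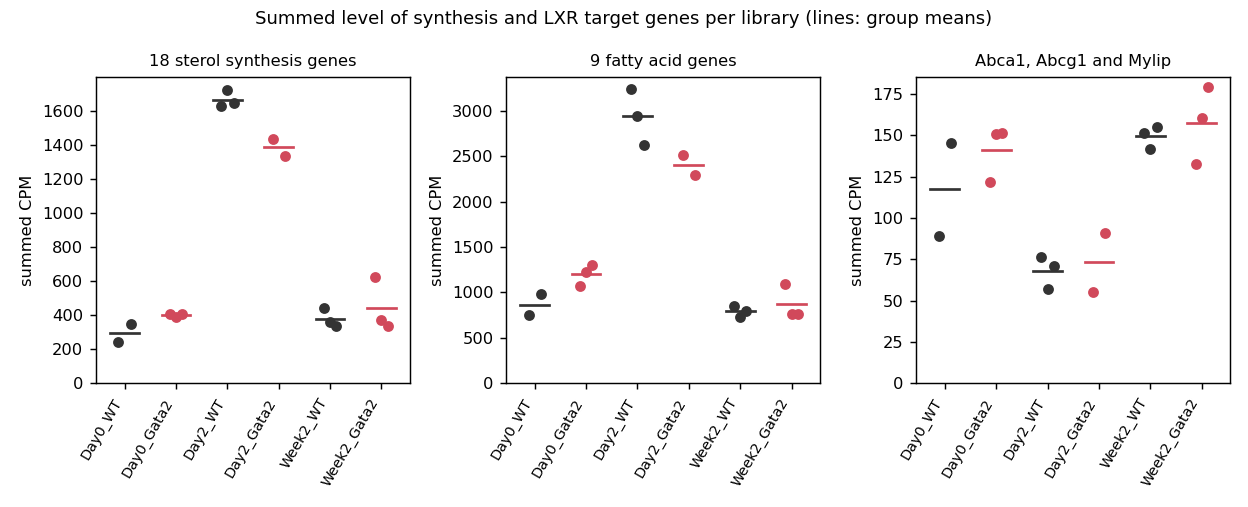
Summed CPM of the 18 sterol synthesis genes, the 9 fatty acid genes, and Abca1, Abcg1 and Mylip in each library (points) with group means (lines), for the 6 groups. The sterol sums are 239.6 to 407 at Day0, 1338 to 1724 at Day2 and 334 to 625 at Week2, with Week2_Gata2 replicate 1 the highest of Week2.

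Among the mevalonate steps, Hmgcs1 had the largest rise in WT. It encodes the cytosolic synthase that joins acetoacetyl-CoA with acetyl-CoA (chromosome 13, 119690379 to 119708260, plus strand, mm10). Its level was 5.34 and 28.1 CPM in Day0_WT, 38.1, 34.5 and 43.3 in Day0_Gata2, 251, 234 and 229.9 in Day2_WT and 227 and 152 in Day2_Gata2. Every Day2 library lay above every Day0 library, and Day0_WT replicate 1 was far below the other 4. The log2 fold change was 3.81 (SE 0.57) in WT and 2.29 (SE 0.48) in the libraries labelled Gata2 (adjusted p = 0.00209 and 0.0182). Mvd, the decarboxylase that yields isopentenyl diphosphate, stood at 0.743 and 8.15 CPM in Day0_WT, 9.85, 6.32 and 10.02 in Day0_Gata2, 48.8, 64.8 and 56.9 in Day2_WT and 40.7 and 52.2 in Day2_Gata2. Its log2 fold changes were 3.63 (SE 0.76) and 2.41 (SE 0.64), with adjusted p = 0.00856 and 0.0465, the second close to the threshold. The WT value of Mvd was 2.77 without Day0_WT replicate 1 and 6.21 without replicate 2. Idi1, the isomerase of isopentenyl diphosphate, was at 3.02 and 8.97 CPM in Day0_WT, 10.1, 8.67 and 8.31 in Day0_Gata2, 59.6, 73.2 and 58.7 in Day2_WT and 70.5 and 42.6 in Day2_Gata2. It rose by log2 fold changes of 3.38 (SE 0.44) and 2.65 (SE 0.38) (adjusted p = 0.0011 and 0.00343), with every Day2 library several times above the highest Day0 value. Processed pseudogenes match up to 684 bases of Idi1, so its level is uncertain.

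Acat2, the thiolase that forms acetoacetyl-CoA, measured 18.2 and 31.1 CPM in Day0_WT, 34.4, 37.3 and 37.8 in Day0_Gata2, 105, 119.5 and 105 in Day2_WT and 83.1 and 80.5 in Day2_Gata2. The Day2 values exceeded all Day0 values, and those of Day2_WT exceeded those of Day2_Gata2. Acat3 matches 1477 of the 2250 bases of its transcript, so reads may be shared between the pair and its level is uncertain. The log2 fold change was 2.13 (SE 0.22) in WT (adjusted p = 0.000376) and 1.16 (SE 0.20) in the libraries labelled Gata2 (adjusted p = 0.00704). Mvk and Pmvk encode the kinases that phosphorylate mevalonate in turn, and Pmvk had the smallest rise of the mevalonate genes in WT. Pmvk was at 11.9 and 17.2 CPM in Day0_WT, 18.2, 16.2 and 16.1 in Day0_Gata2, 29.9, 35.7 and 34.1 in Day2_WT and 24.3 and 34.4 in Day2_Gata2. Its log2 fold change was 1.17 (SE 0.24) in WT, with adjusted p = 0.0084, and 0.80 (SE 0.23) in the libraries labelled Gata2, with adjusted p = 0.059. Mvk rose in WT, by 1.85 (SE 0.49) on the log2 scale (adjusted p = 0.0224; 1.16 without Day0_WT replicate 1 and 3.16 without replicate 2), and its value in the libraries labelled Gata2 was 1.17 (SE 0.45) (adjusted p = 0.143). Neither kinase gene passed in the libraries labelled Gata2, although every Day2 library there lay above every Day0 library. Fdps, the farnesyl diphosphate synthase, was at 1.81 to 2.57 CPM at Day0 and 6.22 to 12.2 at Day2, called higher in both. Its transcript shares stretches of at least 300 bases at 95% identity or more with 5 other annotated genes, 4 of them processed pseudogenes, so its level is uncertain.

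Msmo1 had the lowest p of all 38 genes in both comparisons. It encodes the oxidase that starts removal of the methyl groups at carbon 4 of the sterol ring (chromosome 8, 64718139 to 64733792, minus strand, mm10). Its level was 12.6 and 13.8 CPM in Day0_WT, 15.1, 14.03 and 16.7 in Day0_Gata2, 159, 165 and 159.97 in Day2_WT and 122 and 146 in Day2_Gata2. All 5 Day0 libraries fell in a narrow band, Day0_WT replicate 1 included, and all Day2 libraries were several times higher than any of them. The log2 fold change was 3.58 (SE 0.16) in WT and 3.13 (SE 0.14) in the libraries labelled Gata2 (adjusted p = 7.6e-06 and 2.73e-05). Cyp51, the sterol 14-demethylase, came next at 29.7 and 26.1 CPM in Day0_WT, 33.4, 33.2 and 31.8 in Day0_Gata2, 188, 222 and 208 in Day2_WT and 162 and 129 in Day2_Gata2. Its log2 fold changes were 2.86 (SE 0.17) and 2.15 (SE 0.15) (adjusted p = 2.67e-05 and 8.18e-05). Sqle, the squalene epoxidase and a slow step of the path, was at 10.1 and 35.6 CPM in Day0_WT, 43.1, 43.7 and 45.7 in Day0_Gata2, 229, 236 and 226 in Day2_WT and 218 and 178 in Day2_Gata2. It rose by 3.31 (SE 0.43) and 2.16 (SE 0.37) on the log2 scale (adjusted p = 0.00104 and 0.00712). The WT value was 2.66 without Day0_WT replicate 1, its lowest library.

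Sc5d, which introduces the ring double bond at carbon 5, was at 7.62 and 14.5 CPM in Day0_WT, 19.5, 17.6 and 17.4 in Day0_Gata2, 71.4, 73.8 and 78.6 in Day2_WT and 68.1 and 58.3 in Day2_Gata2. It rose by 2.73 (SE 0.27) in WT and 1.80 (SE 0.23) in the libraries labelled Gata2 on the log2 scale (adjusted p = 0.000318 and 0.00217). Lss, the cyclase that makes lanosterol, ran against the others in 1 library. It was at 44.3 and 17.2 CPM in Day0_WT, 15.9, 19.7 and 17.9 in Day0_Gata2, 134, 114 and 123 in Day2_WT and 91.02 and 90.1 in Day2_Gata2, so that Day0_WT replicate 1 was its highest Day0 value whereas 13 of the 18 sterol synthesis genes had their lowest there. Lss was called in both, at 1.98 (SE 0.35) and 2.34 (SE 0.33) (adjusted p = 0.00435 and 0.00295), and its WT value was 2.82 without that library. Hsd17b7, a sterol ketone reductase, rose by 2.74 (SE 0.37) and 1.65 (SE 0.32), and Fdft1, which makes squalene, by 2.21 (SE 0.29) and 1.76 (SE 0.26). A processed pseudogene matches 1249 bases of Fdft1, so its level is uncertain too. Ctsb, a coding gene that overlaps Fdft1 on the other strand, matches 774 of its bases at 100% identity. Nsdhl, a sterol dehydrogenase, gave nearly the same value in both, 1.34 (SE 0.20) and 1.33 (SE 0.18).

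Nsdhl, Dhcr7, Ebp and Tm7sf2 had the smallest rises in WT among the steps after farnesyl diphosphate. Dhcr7, the last reductase, was at 46.7 and 38.2 CPM in Day0_WT, 49.4, 48.7 and 46.1 in Day0_Gata2, 109.98, 102 and 95.02 in Day2_WT and 94.1 and 111 in Day2_Gata2. It had log2 fold changes of 1.24 (SE 0.16) and 1.09 (SE 0.15) and passed in both (adjusted p = 0.00104 and 0.00301). Ebp, the sterol isomerase, was at 12.8 and 45.1 CPM in Day0_WT, 53.2, 45.99 and 48.04 in Day0_Gata2, 64.5, 77.8 and 74.3 in Day2_WT and 66.8 and 80.4 in Day2_Gata2. Its log2 fold change was 1.30 (SE 0.41) in WT (adjusted p = 0.0387) and 0.58 (SE 0.38) in the libraries labelled Gata2 (adjusted p = 0.395). The WT value of Ebp was 0.65 without Day0_WT replicate 1 and was called (adjusted p = 0.0284). Tm7sf2, a sterol reductase, was likewise called in WT alone, at 1.49 (SE 0.45) (adjusted p = 0.0352), with 0.81 (SE 0.42) in the libraries labelled Gata2 (adjusted p = 0.271). Its WT value without Day0_WT replicate 1 was 0.83 (adjusted p = 0.0257). The WT calls of Ebp and Tm7sf2 were lost when any 1 of the 8 libraries outside Day0_WT was left out, at adjusted p from 0.0541 to 0.0945. Stard4, which carries sterol between membranes, rose in both, at 1.03 (SE 0.27) and 1.57 (SE 0.26) (adjusted p = 0.0198 and 0.00577). Its levels were 71.5 and 38.97 CPM in Day0_WT, 36.9, 37.6 and 33.6 in Day0_Gata2, 127, 122 and 97.5 in Day2_WT and 122 and 92.4 in Day2_Gata2.

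Because the sterol synthesis genes moved together, their promoters were read for the motifs through which SREBP is known to act. Promoter windows from RefSeq (GRCm38.p6, the build of the files) were found for 30 of the 38 genes, and the 250 bases before each start were searched on both strands. The 5 shown are Acat2 and Sc5d, which are among the 8 genes of lowest p over time with an entry, and Hmgcs1, Mvd and Abca1, which were picked after their values were seen as 2 further risers and the gene that fell. They are given 5′ to 3′ without the bases that lie in an annotated exon, at chr13:119690101-119690350 on the plus strand for Hmgcs1, chr17:12960748-12960975 on the minus strand for Acat2, chr8:122443423-122443672 on the minus strand for Mvd, chr9:42264301-42264550 on the minus strand for Sc5d and chr4:53159896-53160145 on the minus strand for Abca1. Capitals mark the SRE core CACNCCAC, the SREBP element, and the NF-Y box CCAAT, the site of a partner factor, or their reverse complements.
Hmgcs1: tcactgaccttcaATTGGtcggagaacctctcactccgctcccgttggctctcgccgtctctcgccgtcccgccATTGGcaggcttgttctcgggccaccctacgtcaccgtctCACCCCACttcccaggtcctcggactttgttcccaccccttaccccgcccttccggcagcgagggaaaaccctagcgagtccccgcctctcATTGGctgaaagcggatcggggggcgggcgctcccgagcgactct
Acat2: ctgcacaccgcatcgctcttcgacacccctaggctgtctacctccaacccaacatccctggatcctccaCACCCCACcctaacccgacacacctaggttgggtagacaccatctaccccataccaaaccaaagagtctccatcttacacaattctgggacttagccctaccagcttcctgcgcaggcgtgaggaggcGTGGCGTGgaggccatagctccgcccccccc
Mvd: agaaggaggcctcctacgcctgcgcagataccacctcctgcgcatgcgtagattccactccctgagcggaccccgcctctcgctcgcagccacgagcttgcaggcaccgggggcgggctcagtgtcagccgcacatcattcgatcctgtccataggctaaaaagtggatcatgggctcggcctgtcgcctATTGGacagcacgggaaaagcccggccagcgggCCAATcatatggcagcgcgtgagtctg
Sc5d: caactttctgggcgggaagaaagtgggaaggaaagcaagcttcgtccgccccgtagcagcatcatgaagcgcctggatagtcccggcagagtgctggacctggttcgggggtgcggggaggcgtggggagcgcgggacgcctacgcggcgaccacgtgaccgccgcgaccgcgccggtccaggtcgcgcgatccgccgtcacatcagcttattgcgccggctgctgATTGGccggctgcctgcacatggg
Abca1: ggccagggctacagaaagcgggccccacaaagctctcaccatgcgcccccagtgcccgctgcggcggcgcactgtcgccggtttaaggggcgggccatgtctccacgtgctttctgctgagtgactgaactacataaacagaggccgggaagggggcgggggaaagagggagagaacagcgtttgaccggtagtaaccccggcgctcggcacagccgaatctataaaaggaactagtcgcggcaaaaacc

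Hmgcs1 holds an SRE core 136 bases before its start, with NF-Y boxes on the other strand at 237, 176 and 45 bases. Acat2 holds 2 SRE cores, at 181 and 53 bases, and no NF-Y box. The NF-Y box was present in 14 of the 15 sterol synthesis genes with an entry, Acat2 being the exception, and in 77.8% of their 18 windows. Over all 32851 windows of the table it was present in 33.8%. The SRE core was in 11.1% of the sterol synthesis windows, 7.69% of the members' 39 windows and 5.29% of all windows. It was found in 3 genes, Acat2, Hmgcs1 and Insig1, and most sterol synthesis windows held no exact match to it. Acat2 and Hmgcs1, the sterol synthesis genes that carry it, are both among those shown. The GC box GGGCGG was in 83.3% of the sterol synthesis windows and 32.7% of all, and the E-box CACGTG in 16.7% and 6.02%. The exact letters of the LXR element DR4, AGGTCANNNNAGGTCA, were in 0 of the members' 39 windows and in 5 of all 32851 (0.0152%). At that rarity a match in 39 windows was unlikely from the start. Its absence does not show that these genes lack an LXR element. The 5 motifs do not contain each other. These matches describe letters in a short window and do not show that a factor binds there. Nor does the lack of a match show that a site is absent, since only the exact letters were searched.

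**Figure D3:**
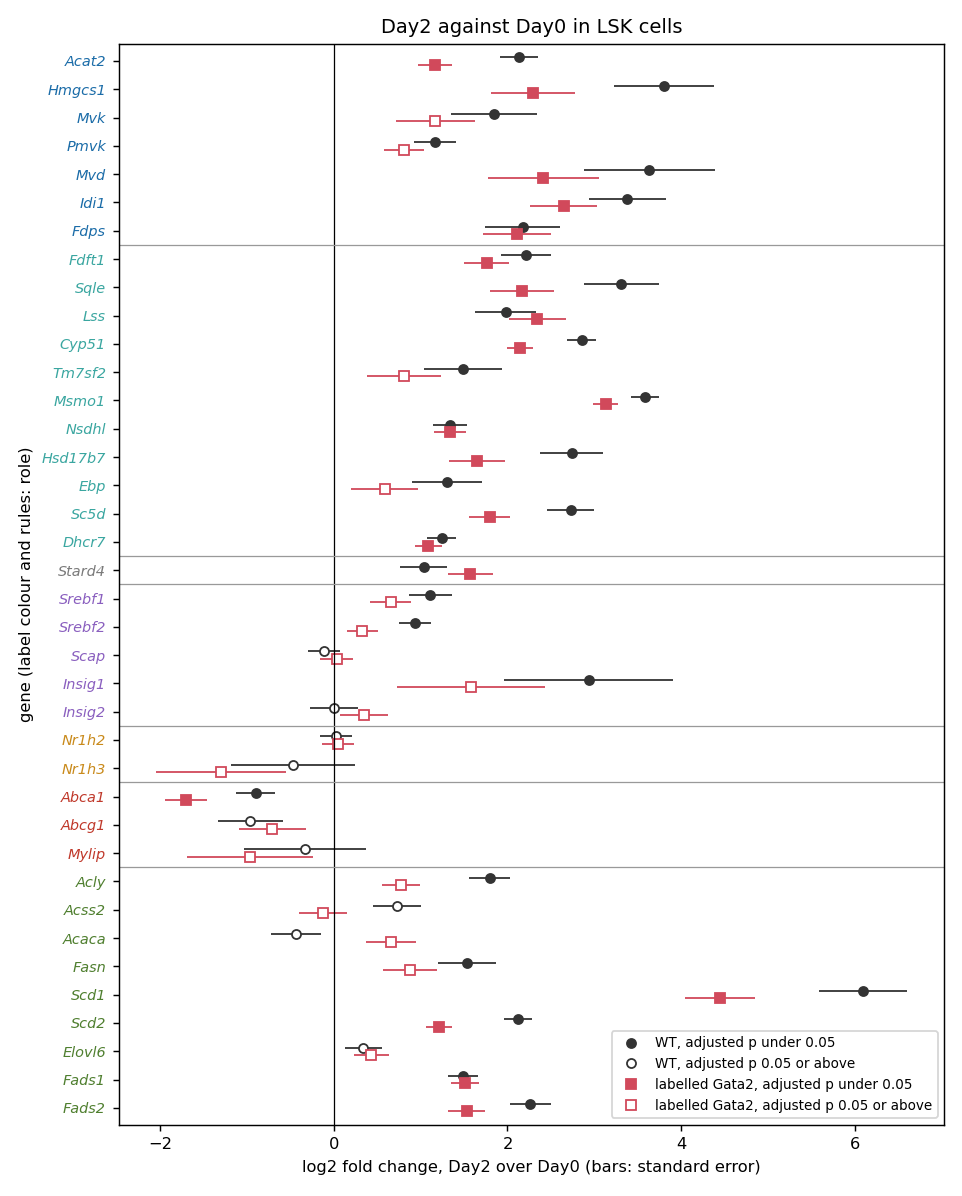
Log2 fold change of Day2 over Day0 with its standard error for the 38 genes, in WT (circles) and in the libraries labelled Gata2 (squares), filled where the adjusted p is under 0.05. All 18 sterol synthesis genes lie to the right of 0 in both, Scd1 farthest right at 6.09 and 4.45, and Abca1 is the filled point to the left.

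Of the 5 genes that control SREBP, 3 were called higher in WT and 0 passed in the libraries labelled Gata2. Srebf2 encodes the SREBP that drives sterol genes (chromosome 15, 82147181 to 82205379, plus strand, mm10). It was at 201 and 331 CPM in Day0_WT, 365, 384 and 346 in Day0_Gata2, 541, 485 and 519.6 in Day2_WT and 434 and 483 in Day2_Gata2, with log2 fold changes of 0.93 (SE 0.18) and 0.33 (SE 0.18) (adjusted p = 0.00682 and 0.289). Srebf1 encodes the SREBP forms that favour fatty acid genes. Its level was 76.7 and 124 CPM in Day0_WT, 149, 147 and 148 in Day0_Gata2, 242, 203 and 216 in Day2_WT and 172 and 295 in Day2_Gata2. Its log2 fold changes were 1.11 (SE 0.25) and 0.66 (SE 0.24) (adjusted p = 0.0114 and 0.117). Without Day0_WT replicate 1 the WT value of Srebf1 was 0.80 and no longer passed (adjusted p = 0.0536), and that of Srebf2 was 0.61 and passed (adjusted p = 0.0136).

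Insig1, the anchor that is itself an SREBP target, showed how much 1 library weighed. It was at 0.697 and 27.9 CPM in Day0_WT, 23.7, 25.2 and 29.3 in Day0_Gata2, 113, 112 and 108 in Day2_WT and 92.1 and 63.4 in Day2_Gata2. Day0_WT replicate 1 was far below every other library, and the Day2 libraries were all above every Day0 library. The log2 fold change was 2.93 (SE 0.97) in WT (adjusted p = 0.0477) and 1.58 (SE 0.85) in the libraries labelled Gata2 (adjusted p = 0.287). Without Day0_WT replicate 1 the WT value was 1.96, and it was called (adjusted p = 0.00058). The call was lost when any 1 of the 8 libraries outside Day0_WT was left out (adjusted p from 0.066 to 0.0939). Insig2, the anchor that does not depend on SREBP, was at 31.9 and 17.3 CPM in Day0_WT, 18.8, 16.1 and 16.9 in Day0_Gata2, 26.5, 23.3 and 25.9 in Day2_WT and 23.8 and 20.1 in Day2_Gata2. Its log2 fold changes of 0.00 (SE 0.27) and 0.35 (SE 0.27) did not pass, nor did those of Scap, -0.11 (SE 0.19) and 0.03 (SE 0.19).

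Of the 2 LXR receptors and 3 LXR targets, Abca1 alone was called, lower in both comparisons. Of all genes, 17.9% were called lower in WT and 4.82% in the libraries labelled Gata2. Abca1, the exporter that loads cholesterol onto lipid-poor apolipoprotein (chromosome 4, 53030787 to 53159895, minus strand, mm10), was at 26.5 and 28.5 CPM in Day0_WT, 29.3, 35.5 and 34.9 in Day0_Gata2, 13.3, 13.5 and 18.2 in Day2_WT and 11.2 and 9.26 in Day2_Gata2. Every Day2 library lay below every Day0 library, and the log2 fold change was -0.90 (SE 0.22) in WT and -1.70 (SE 0.24) in the libraries labelled Gata2 (adjusted p = 0.0161 and 0.00295). The WT call was lost without Day2_WT replicate 2, at -0.83 (adjusted p = 0.0611). It was also lost with limma voom and quality weights (adjusted p = 0.175) and when only the WT libraries were fitted. Abcg1, which exports cholesterol to formed lipoprotein particles, was at 59.1 and 75.2 CPM in Day0_WT, 64.4, 84.1 and 77.7 in Day0_Gata2, 44.8, 26.7 and 33.8 in Day2_WT and 24.5 and 67.8 in Day2_Gata2. The WT groups did not overlap, but Day2_Gata2 replicate 2 stood within the Day0 range, and the log2 fold changes of -0.96 (SE 0.37) and -0.71 (SE 0.38) did not pass (adjusted p = 0.0782 and 0.291).

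Mylip, the ligase for lipoprotein receptors, was at 3.30 and 41.9 CPM in Day0_WT, 28.1, 31.1 and 38.6 in Day0_Gata2, 18.5, 17.04 and 18.6 in Day2_WT and 19.5 and 13.8 in Day2_Gata2. Day0_WT replicate 1 was again far below the other Day0 libraries, and the values of -0.33 (SE 0.70) and -0.97 (SE 0.73) did not pass (adjusted p = 0.749 and 0.472). The median log2 fold change of the 3 LXR targets was -0.90 in WT and -0.97 in the libraries labelled Gata2. Of the receptors, Nr1h2 (LXR beta) was high and steady, at 119 and 171 CPM in Day0_WT, 162, 159 and 166 in Day0_Gata2, 146, 142 and 161 in Day2_WT and 138 and 198 in Day2_Gata2. Nr1h3 (LXR alpha) was low, at 0.325 and 3.01 CPM in Day0_WT, 3.17, 2.64 and 3.34 in Day0_Gata2, 1.31, 1.19 and 1.19 in Day2_WT and 1.36 and 1.12 in Day2_Gata2. Neither passed, with log2 fold changes of 0.03 (SE 0.18) and 0.05 (SE 0.18) for Nr1h2 and -0.47 (SE 0.71) and -1.30 (SE 0.75) for Nr1h3.

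Of the 9 fatty acid genes, 6 were called higher in WT (Acly, Fasn, Scd1, Scd2, Fads1 and Fads2) and 4 in the libraries labelled Gata2 (Scd1, Scd2, Fads1 and Fads2). The medians of the 9 were 1.53 and 0.88 on the log2 scale. Scd1, a stearoyl-CoA desaturase that makes oleate (chromosome 19, 44394455 to 44407879, minus strand, mm10), had the largest change of all 38. It was at 0.279 and 0.820 CPM in Day0_WT, 0.732, 0.532 and 0.665 in Day0_Gata2, 49.2, 38.3 and 33.5 in Day2_WT and 11.4 and 16.8 in Day2_Gata2. Its log2 fold changes were 6.09 (SE 0.51) and 4.45 (SE 0.40) (adjusted p = 0.000149 and 0.000334). Scd2, its neighbour on the chromosome, was already high at Day0, at 211 and 268 CPM in Day0_WT, 282, 311 and 338 in Day0_Gata2, 1176, 1061 and 947 in Day2_WT and 777 and 659 in Day2_Gata2. It rose by 2.12 (SE 0.16) and 1.21 (SE 0.15) (adjusted p = 0.000105 and 0.00154). A 623 base stretch of Scd2 matches an Scd1 transcript at 95% identity or more, so some reads may be shared between the pair.

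The desaturases of long polyunsaturated chains, Fads1 and Fads2, rose with them. Fads1 was at 106 and 74.4 CPM in Day0_WT, 80.4, 82.4 and 77.7 in Day0_Gata2, 274, 257 and 241 in Day2_WT and 238 and 217 in Day2_Gata2, and its log2 fold changes were nearly the same, 1.49 (SE 0.17) and 1.51 (SE 0.16) (adjusted p = 0.000643 and 0.000805). Fads2 was at 66.98 and 44.1 CPM in Day0_WT, 56.2, 55.7 and 57.7 in Day0_Gata2, 275, 289 and 251 in Day2_WT and 197 and 129 in Day2_Gata2, with 2.26 (SE 0.24) and 1.53 (SE 0.21) (adjusted p = 0.000427 and 0.00307). Acly and Fasn, which supply and build the chain, were called in WT and not in the libraries labelled Gata2. Acly, which makes cytosolic acetyl-CoA from citrate, was at 136 and 241 CPM in Day0_WT, 274, 339 and 352 in Day0_Gata2, 689, 667 and 634 in Day2_WT and 628 and 475 in Day2_Gata2. It had 1.80 (SE 0.24) in WT and 0.78 (SE 0.22) in the libraries labelled Gata2 (adjusted p = 0.00111 and 0.0552). Fasn, the fatty acid synthase, was at 104 and 241 CPM in Day0_WT, 270.4, 316 and 362 in Day0_Gata2, 632, 497 and 385 in Day2_WT and 532 and 632 in Day2_Gata2, with 1.53 (SE 0.33) and 0.88 (SE 0.31) (adjusted p = 0.0101 and 0.11). Without Day0_WT replicate 1 the WT values of Acly and Fasn were 1.43 and 1.04, both called.

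Acaca, the carboxylase that commits acetyl-CoA to fatty acids, did not pass in either and had opposite signs. It was at 55.8 and 35.9 CPM in Day0_WT, 35.04, 34.3 and 34.7 in Day0_Gata2, 44.8, 35.7 and 23.3 in Day2_WT and 47.9 and 61.8 in Day2_Gata2, with log2 fold changes of -0.44 (SE 0.29) and 0.66 (SE 0.29). A processed pseudogene matches 6118 of its bases, so its level is uncertain as well, as is that of Elovl6, with a match of 805 bases. Acss2, which makes acetyl-CoA from acetate, and the elongase Elovl6 did not pass, with 0.73 (SE 0.28) and -0.12 (SE 0.27) for Acss2 and 0.34 (SE 0.21) and 0.43 (SE 0.20) for Elovl6. Over all 38 genes, the Day2 libraries lay wholly above the Day0 libraries for 30 genes in WT and 30 in the libraries labelled Gata2, where 25.3% and 25.9% of all genes did so.

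The remaining members are given by their ranges over the 5 Day0 and the 5 Day2 libraries. Fdft1 ran from 10.2 to 19.9 CPM at Day0 and 57.6 to 81.2 at Day2, Hsd17b7 from 2.14 to 7.11 CPM at Day0 and 18.8 to 24.6 at Day2 and Nsdhl from 14.8 to 18.03 CPM at Day0 and 37.5 to 45.5 at Day2, each with its ranges apart. Those of Tm7sf2, 2.69 to 10.7 CPM at Day0 and 15.3 to 19.99 at Day2, and of Mvk, 3.25 to 13.8 CPM at Day0 and 21.8 to 34.8 at Day2, were also apart. By contrast, Scap ran from 106 to 144 CPM at Day0 and 106 to 152 at Day2, and these ranges overlapped. So did those of Acss2, 20.1 to 38.4 CPM at Day0 and 26.1 to 53.2 at Day2, and Elovl6, 40.9 to 47.2 CPM at Day0 and 45.2 to 72.6 at Day2.

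Members differed in how firmly their rise held. Cyp51, Dhcr7, Fads1, Fads2, Fdft1, Msmo1, Sc5d and Scd1 were called in both comparisons and in each of the 19 alternatives of each. These alternatives do not address the bases that Fdft1 shares with other genes. In WT the count of members called was 29 and was 30 without Day0_WT replicate 1. It fell to 16 when only the 5 WT libraries were fitted and to 19 with limma voom and quality weights. Without Day0_WT replicate 2, WT values went to 7.27 for Insig1, 2.67 for Tm7sf2 and 2.46 for Ebp, whereas Stard4 went to 0.65 there and to 1.54 without replicate 1. In the libraries labelled Gata2 the count was 20, 11 without Day2_Gata2 replicate 1, 30 without Day0_WT replicate 1, 30 when only its 5 libraries were fitted and 29 with limma voom. The order of the 2 counts thus turned with those last 2 settings. Among its sterol genes, Mvd lost its call in 8 of the 10 fits that left out 1 library, Hmgcs1 in 5, Hsd17b7 in 4 and Fdps in 3. In WT, Mvk and Stard4 each lost theirs in 2, without Day2_WT replicate 2 or Day2_WT replicate 3 for Mvk and without Day2_WT replicate 1 or Day2_WT replicate 2 for Stard4. In the libraries labelled Gata2, Acat2, Idi1, Scd2, Sqle and Stard4 lost theirs without Day2_Gata2 replicate 1, at adjusted p from 0.0577 to 0.117.

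Other cell types' genes moved between the same libraries. Of 8 neutrophil genes, 6 rose in WT and 2 in the libraries labelled Gata2, and their sum was 72.9 to 282 CPM at Day0 and 620.1 to 1731 at Day2. Of 7 erythroid genes, 4 and 3 fell, with sums of 477 to 817 and 388 to 466 CPM. Of 6 B cell genes, 4 and 0 fell, with sums of 57.8 to 132 and 18.8 to 30.98 CPM. Of 5 T and NK cell genes, 2 and 4 fell, with sums of 146 to 271 and 105 to 149 CPM, and Cd3e was at 0 in all 5 Day2 libraries. Of 12 monocyte and macrophage genes, 1 rose and 1 fell in WT and 0 rose and 1 fell in the libraries labelled Gata2, with sums of 257 to 537 and 468 to 711 CPM. Of 5 stroma and endothelium genes tested, 1 rose in each and 2 and 1 fell, while the adipocyte genes Adipoq and Lep were below the low count filter.

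Of 8 LSK and early progenitor genes, Flt3, Ly6a and Procr fell in both comparisons, and the sum was 1794 to 2461 CPM at Day0 and 1499.5 to 1680.1 at Day2. Of 7 proliferation genes, 5 rose in WT and 1 in the libraries labelled Gata2, with sums of 1884 to 2442 and 2847 to 3195 CPM. The part of these changes in the change of the lipid genes was not tested.

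A further 56 genes of the same pathways were read alongside, 55 of them tested in LSK cells. In WT 21 were called higher and 4 lower, and in the libraries labelled Gata2 11 were higher and 3 lower. SREBP processing genes had 4 of 9 called higher in WT and 1 in the libraries labelled Gata2, with Sec24d, a coat protein of the vesicles that carry cargo out of the endoplasmic reticulum, at 1.88 (SE 0.22) and 1.20 (SE 0.20). Of 17 further fatty acid and lipid genes, 11 and 6 rose, led by malic enzyme Me1, a source of NADPH, at 3.51 (SE 0.51) and 2.71 (SE 0.44). Of the 12 tested genes of sterol uptake, storage and trafficking, 5 and 3 rose. In both, 1 fell, the oxysterol binding protein gene Osbp, at -1.19 (SE 0.35) and -1.40 (SE 0.37). Of the 8 genes of the isoprenoid branch, which leads away from sterols, 0 were called in either comparison by edgeR's test, with 4 at an unadjusted p under 0.05 in WT and 0 in the libraries labelled Gata2, where 8251 and 4871 of all 19162 genes were.

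Of 9 further genes of the LXR and RXR network, 1 rose and 3 fell in WT, and 1 rose and 2 fell in the libraries labelled Gata2. Arl4c, an LXR target, was at 24.8 and 13.9 CPM in Day0_WT, 12.96, 12.4 and 12.1 in Day0_Gata2, 1.42, 1.03 and 0.975 in Day2_WT and 2.12 and 2.43 in Day2_Gata2. It fell in both, with log2 fold changes of -4.11 (SE 0.36) and -2.45 (SE 0.38) (adjusted p = 0.000169 and 0.00436). Rxra, the gene of the partner receptor, also fell, with -2.00 (SE 0.43) and -2.76 (SE 0.49) (adjusted p = 0.00975 and 0.0083). Lpcat3, an LXR target that remodels phospholipids, rose by 1.36 (SE 0.15) and 0.85 (SE 0.14) (adjusted p = 0.000506 and 0.00612).

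Set by genotype at Day2, 0 of the 38 genes passed edgeR's test, as did 0% of all 19162 genes. At an unadjusted p under 0.05 there were 7 of the 38 and 1070 of all genes, and DESeq2 called 1 and limma voom with quality weights 0. Of the 18 sterol synthesis genes, 15 had a negative fitted log2 fold change for Gata2 over WT (16 had the lower mean CPM), with a median log2 fold change of -0.23 against 0.00 over all genes. Over the 38, 17 had both Day2_Gata2 libraries below all 3 Day2_WT libraries, where 11.2% of all genes did so. Scd1 had the largest difference and the lowest p, at 11.4 and 16.8 CPM against 49.2, 38.3 and 33.5, a log2 fold change of -1.51 (SE 0.39) with adjusted p = 0.634. By DESeq2 its value was -1.50 with adjusted p = 0.00514, without Day0_WT replicate 1 its adjusted p was 0.05, just under the threshold, and over the other alternatives it ran from 0.0524 to 1.

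Scd2 followed Scd1 at Day2, at 777 and 659 CPM against 1176, 1061 and 947 (-0.56, SE 0.15, adjusted p = 0.643). Cyp51 was at 162 and 129 CPM against 188, 222 and 208 (-0.50, SE 0.15, adjusted p = 0.736), and Fads2 at 197 and 129 against 275, 289 and 251 (-0.74, SE 0.22, adjusted p = 0.736). In all 4 the groups did not overlap, with 3 libraries against 2. Acaca was the 1 member with both Day2_Gata2 libraries above all Day2_WT libraries, at 47.9 and 61.8 against 44.8, 35.7 and 23.3 CPM (0.67, SE 0.29, adjusted p = 0.883). Among the SREBP control genes Insig1 had the most negative value, -0.51 (SE 0.87), and Abca1 the most negative of the LXR side, -0.55 (SE 0.23), neither past the threshold.

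At Day0, 0 of the 38 passed between genotypes, as did 0% of all genes, with 11 of the 38 and 2586 of all genes at an unadjusted p under 0.05, and 0 of the 38 by DESeq2 and by limma voom. Of the 18 sterol synthesis genes, 15 had a positive fitted log2 fold change and 16 the higher mean CPM in the libraries labelled Gata2 (median fold change 0.54, all genes 0.02). Of the 38, 14 had all 3 Day0_Gata2 libraries above both Day0_WT libraries, where 18.8% of all genes did. The 4 of lowest p were Acly (0.75, SE 0.23), Sc5d (0.69, SE 0.24), Acat2 (0.55, SE 0.20) and Fasn (0.86, SE 0.32), with adjusted p from 0.341 to 0.342. Without Day0_WT replicate 1 the median of the 18 was 0.14. Without Day0_WT replicate 2, which leaves replicate 1 alone, it was 1.27, and 23 members and 8655 of 21682 genes were called.

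The difference between the 2 Day0 to Day2 changes was tested as an interaction. Of the 38 genes, 0 passed, as did 0% of all genes, with 12 and 1984 at an unadjusted p under 0.05. DESeq2 called 1 member, Scd2, and limma voom 0. Of the 18 sterol synthesis genes, 17 had the smaller rise in the libraries labelled Gata2, with a median difference of -0.69 on the log2 scale against -0.06 over all genes. Scd2 (-0.92, SE 0.21), Acat2 (-0.97, SE 0.29), Cyp51 (-0.71, SE 0.21) and Acly (-1.02, SE 0.32) had the lowest p, each with adjusted p = 0.465. Scd1 had the most negative value of all 38, -1.64 (SE 0.57), and Acaca the most positive, 1.10 (SE 0.41). The median of the 18 was -0.35 without Day0_WT replicate 1 and -1.56 without Day0_WT replicate 2, where 25 members and 6733 of 21682 genes were called. That members passed in WT and not in the libraries labelled Gata2 is thus not shown to be a difference between them.

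**Figure D4:**
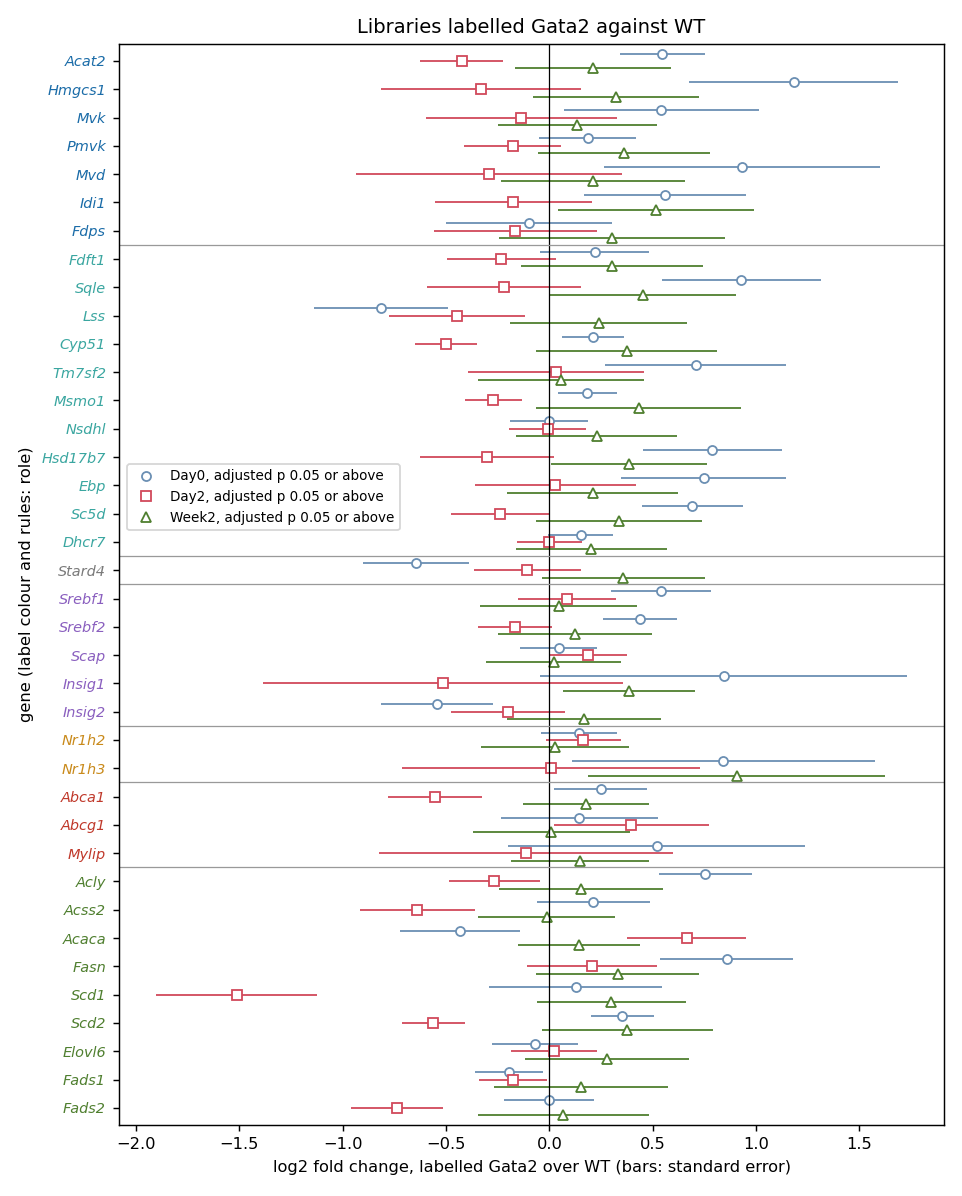
Log2 fold change of the libraries labelled Gata2 over WT, with standard errors, for the 38 genes at Day0 (circles), Day2 (squares) and Week2 (triangles). All points are open, since 0 passed, and Scd1 at Day2 lies farthest left at -1.51.

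In the Week2 marrow, 0 of the 38 genes passed edgeR's test between genotypes, as did 0% of 36485 genes, with 0 and 87 at an unadjusted p under 0.05. DESeq2 called 0 members, and limma voom with quality weights called 8 of the 38 and 12866 of all 36485 genes. In edgeR's fit 37 of 38 had a positive log2 fold change for the libraries labelled Gata2, and 31 of 38 the higher mean CPM when scaled over all 16 libraries (fitted median of the 18 sterol genes 0.30), and for each the groups overlapped. The sterol genes summed to 625, 372 and 334 CPM in Week2_Gata2 and 442, 362 and 336 in Week2_WT, and without Week2_Gata2 replicate 1 the median was -0.11. Sqle was at 50.1, 24.2 and 21.9 CPM in Week2_Gata2 and 29.9, 21.02 and 23.7 in Week2_WT, and Hmgcs1 at 67.7, 39.4 and 37.9 and 47.9, 37.6 and 36.7. The same library had the highest sum of neutrophil genes (79681 CPM, the other 5 at 19595 to 68494) and of monocyte and macrophage genes (1655 CPM, the others at 531 to 1111). Their part in the result was not tested.

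The 4 members of lowest p at Week2 were Nr1h3 (0.91, SE 0.72), Insig1 (0.39, SE 0.32), Idi1 (0.52, SE 0.47) and Hsd17b7 (0.38, SE 0.38), none past the threshold. Mylip, the LXR target, was at 104, 85.8 and 99.3 CPM in Week2_WT and 80.4, 108 and 123 in Week2_Gata2. Abca1 was at 20.6, 25.4 and 29.2 and 19.5, 25.9 and 37.04 CPM, and Scd1 at 84.9, 57.1 and 57.7 and 62.02, 77.03 and 108. In these 3 genes Week2_Gata2 replicate 3 was the highest of the 6 libraries, and it was the 1 library of the 6 with Ddx3y near 0. It also had the lowest sum of the 7 erythroid genes, 44.2 CPM. That sum was 51.6 CPM in Week2_WT replicate 2 and 401 to 1904 in the rest. The part of sex or of erythroid cells in these values was not tested.

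The Week2 cells differ from LSK cells in kind, so Week2 minus Day0 compares cell mixtures as well as times. In WT, 8 members were higher and 11 lower at Week2 (of all 31164 genes 21.9% higher and 11.6% lower). In the libraries labelled Gata2, 5 were higher and 11 lower (all genes 32.6% and 10.4%). The 5 were all among the 8 of WT, and 10 of the 11 lower genes were shared. The median over all genes tested was 0.95 and 1.22 on the log2 scale, so values near 0 lie below that of a typical gene. With genes kept only at 5 CPM or more in 2 libraries that median was 0.04 and 0.06, and 21 and 18 members were called.

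Sterol synthesis at Week2 summed to 334 to 625 CPM against 239.6 to 407 at Day0, and its genes split. Hsd17b7, Msmo1 and Sc5d were higher than at Day0 in both comparisons. The log2 fold changes were 2.01 (SE 0.35) and 1.49 (SE 0.29) for Hsd17b7, 1.41 (SE 0.35) and 1.56 (SE 0.31) for Msmo1 and 1.57 (SE 0.30) and 1.11 (SE 0.25) for Sc5d. Dhcr7 was lower in both, at -0.86 (SE 0.20) and -0.92 (SE 0.18). Msmo1 was at 43.1, 41.05 and 21.3 CPM in Week2_WT and 72.8, 30.1 and 32.2 in Week2_Gata2, above all Day0 and below all Day2 libraries, and its value in the libraries labelled Gata2 was 1.03 without Week2_Gata2 replicate 1. Hmgcs1 and Mvd were called higher in WT alone, at 1.27 (SE 0.46) and 2.15 (SE 0.65), and Lss lower (-1.47, SE 0.33). Without Day0_WT replicate 1 none of these 3 was called, at 0.53, 1.31 and -0.63, nor was Msmo1 in WT, at 1.34 (adjusted p = 0.07). Without Day0_WT replicate 2, Hmgcs1 was at 2.94 and Mvd at 4.77 in WT. Over the 16 fits that left out 1 library, the WT call was lost in 12 for Hmgcs1, 3 for Mvd, 3 for Msmo1 and 1 for Lss. Sc5d lost its call in the libraries labelled Gata2 in 3 of these fits. Stard4 was lower in both, -1.81 (SE 0.27) and -0.93 (SE 0.25). Among the control genes Srebf2 was lower in the libraries labelled Gata2 (-0.997, SE 0.21, adjusted p = 0.00282) and not past the threshold in WT (-0.60, SE 0.23, adjusted p = 0.0556).

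Of the 3 LXR targets, Mylip, which acts on uptake, was higher at Week2, at 104, 85.8 and 99.3 CPM in Week2_WT and 80.4, 108 and 123 in Week2_Gata2, with log2 fold changes over Day0 of 2.08 (SE 0.64) and 1.67 (SE 0.54) (adjusted p = 0.0274 and 0.0269). Its calls were lost in 2 and 6 of the 16 fits that left out 1 library, with values from 1.20 (without Day0_WT replicate 1) to 4.88 (without Day0_WT replicate 2) in WT and from 1.33 to 1.84 in the libraries labelled Gata2. The exporter gene Abcg1 was lower, at 26.8, 30.7 and 26.2 CPM in Week2_WT and 32.97, 26.2 and 18.5 in Week2_Gata2, with -1.27 (SE 0.34) and -1.54 (SE 0.31) (adjusted p = 0.0132 and 0.00199). Its WT call was lost with limma voom and quality weights (adjusted p = 0.122) and without Day0_WT replicate 2, at -1.07. Its call in the libraries labelled Gata2 held in every alternative. Abca1 did not pass, at -0.13 (SE 0.28) and -0.27 (SE 0.25).

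Of the 9 fatty acid genes at Week2, 7 were called lower than at Day0 in both comparisons (Acss2, Acaca, Fasn, Scd2, Elovl6, Fads1 and Fads2). Fads2 was at 11.7, 7.86 and 15.8 CPM in Week2_WT and 12.1, 12.9 and 9.38 in Week2_Gata2, with the most negative log2 fold changes of -2.23 (SE 0.27) and -2.30 (SE 0.25) (adjusted p = 1.89e-05 and 5.53e-06). Fads1 had -2.06 (SE 0.25) and -1.86 (SE 0.23), and Scd2 -1.26 (SE 0.24) and -1.36 (SE 0.22). Acly was the exception that stayed high, at 479.8, 407 and 434 CPM in Week2_WT and 593, 405 and 391 in Week2_Gata2, called higher in WT (1.22, SE 0.25). Scd1 had the largest rise of the 38, at 84.9, 57.1 and 57.7 CPM in Week2_WT and 62.02, 77.03 and 108 in Week2_Gata2, with log2 fold changes of 6.81 (SE 0.47) and 6.996 (SE 0.39) (adjusted p = 6.44e-08 and 6.41e-09). Not all 7 were firm, and of them Fads1, Fads2 and Scd2 alone kept their WT calls in each of the 25 alternatives. Fasn in WT was at -0.90 (SE 0.31), lost its call in 8 of the 16 fits that left out 1 library, and was -0.15 without Day0_WT replicate 2. Acss2 in WT, at -0.91 (SE 0.29), was -0.36 and not called without that library (adjusted p = 0.31). In the libraries labelled Gata2, Acaca (-0.75, SE 0.28) lost its call in 6 and Elovl6 (-0.70, SE 0.22) in 4 of the 16 fits that left out 1 library. Week2 libraries had all 8 neutrophil and all 6 B cell genes called higher than Day0 in both comparisons and 6 and 5 of 8 LSK genes called lower. Their part in these differences was not tested.

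**Figure D5:**
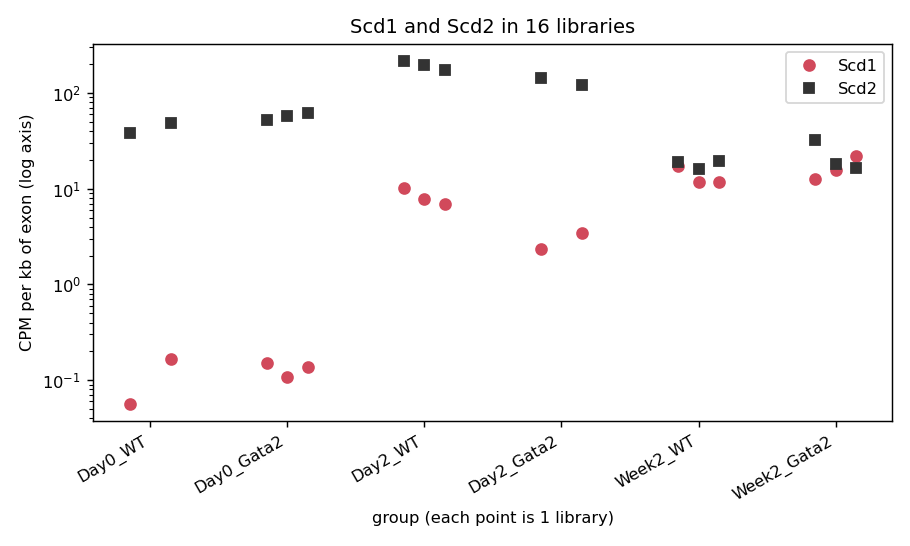
Scd1 (circles) and Scd2 (squares) in CPM per kb of exon on a log axis, 1 point per library, for the 6 groups. Scd2 exceeds Scd1 in every library except Week2_Gata2 replicate 3, by the most at Day0.

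Levels were set between genes per kb of exon, with the bases of all annotated exons of a gene as its length. On that scale Scd1 held 0.147% to 0.341% of the summed Scd1 and Scd2 level at Day0, 3.80% to 4.47% in Day2_WT, 1.61% to 2.77% in Day2_Gata2 and 28.3% to 57.3% at Week2. Srebf1 held 32.4% to 35.3% of the summed Srebf1 and Srebf2 level at Day0, 33.6% to 43.8% at Day2 and 37.8% to 45.6% at Week2, where the Week2 range lay above that of Day0. Insig1 held 78.00% to 84.3% of the Insig pair at Day2 and 52.05% to 65.9% at Week2. At Day0 its share was 2.39% in Day0_WT replicate 1 and 58.6% to 66.1% in the other 4. Nr1h3 held at most 2.61% of the LXR receptor pair in any library.

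On the same per kb scale, the mean levels of the 38 in Day2_WT were led by Scd2 (194 CPM per kb), Acly (126), Fads2 (82.5) and Srebf2 (71.7). Hmgcs1 (51.8) and Cyp51 (46.6) led the sterol enzymes, which at Day0_WT had been led by Ebp (12.5) and Acat2 (9.69). At Week2_WT the order was Acly (83.4), Nr1h2 (59.7), Mylip (29.8) and Srebf2 (24.4). These ranks depend on the length used. All annotated exons cover 6144 bases for Msmo1 and 5546 for Sqle, whereas their longest coding transcripts hold 2044 and 2758. For Hmgcs1 and Cyp51 the same lengths are 4594 and 4415 against 3464 and 3931. Ranks by transcript length were not tested. Counting could have shared reads in further genes, since 13 of the 38 overlap a gene on the other strand and 12 one on the same strand, and the strand setting is not given in the sources used here.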

How the data were processed

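The authors deposited a table of read counts per gene for 16 libraries. Per the submitters' processing notes, Trimmomatic 0.38 and STAR 2.5.2b were used with the mm10 build. What counted the reads, whether by strand and on which gene models is not given in the sources used here. Counts were analysed in R 4.3.3 with edgeR 4.0.16: genes passing its filter on low counts, TMM scaling, and robust quasi-likelihood tests with Benjamini-Hochberg adjustment over all genes tested. The 10 LSK libraries shared 1 fit for Day0 and Day2, the 6 Week2 libraries another, and all 16 the comparisons of Week2 with Day0. A call is an adjusted p under 0.05. Levels are CPM scaled by TMM over all 16 libraries, and standard errors come from the fitted fold change and its F statistic. DESeq2 1.42.0 and limma 3.58.1 were alternatives, and the scripts were tested on simulated counts. The members and gene lists were chosen with earlier results of these data known. Members described in full are those called (or the 4 of lowest p where fewer were) and those of largest rise and fall in each role.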

Additional observations from a re-analysis of the deposited data

How the results depend on the processing

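Over all alternatives (other scaling, other filters on low counts, DESeq2, limma voom with quality weights, sex as a covariate, a replicate block, only the groups compared, and 1 library left out), 0 calls changed direction. For single members, 1889 results stayed on their side of the threshold, 182 were lost and 14 gained. With limma voom, members called numbered 8 between genotypes at Week2, 19 over time in WT and 7 for Week2 against Day0 in WT. With only the WT libraries, 16 were called over time in WT. DESeq2 called 1 member between genotypes at Day2 and 1 in the difference between the time changes.

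Leaving out 1 library gave 0 to 23 members called between genotypes at Day0, 0 to 1 at Day2 and 0 in each fit at Week2. It gave 23 to 32 over time in WT, 11 to 30 over time in the libraries labelled Gata2 and 0 to 25 for the difference between those changes. The median log2 fold change of the 18 sterol synthesis genes ran from 0.14 to 1.27 between genotypes at Day0, -0.23 to -0.13 at Day2 and -0.11 to 0.67 at Week2. Over time it ran from 2.11 to 2.75 in WT and 1.59 to 1.84 in the libraries labelled Gata2, and the difference from -1.56 to -0.35. For Week2 against Day0 it ran from -0.022 to 1.32 in WT and -0.19 to 0.28 in the libraries labelled Gata2. That median over time in the libraries labelled Gata2 was 1.73 with upper quartile scaling, 1.59 with no filter, 1.71 at 5 CPM or more and 1.89 with sex as a covariate, which also gave -0.99 for the difference. With no filter it was -0.17 between genotypes at Day2. The causes of these shifts were not tested.

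The labels do not state that replicate numbers pair the samples, and the values do not settle it. Deviations of same-numbered libraries correlated at -0.077 to 0.091 in LSK cells, and at 0.727, -0.74 and 0.479 at Week2. In a group of 2 libraries the deviations mirror each other, so replicates 1 and 2 are not separate evidence there. With the replicate block, 26 members were called over time in WT and 16 in the libraries labelled Gata2, 0 between genotypes at each time and 0 for the difference, and 17 and 15 for Week2 against Day0. Day0_WT is limited most, with 2 libraries of which replicate 1 is shallow and differs from replicate 2 in more than depth. Insig1 had 15 counts in replicate 1 and 1428 in replicate 2, at library totals of 19.6 and 47.9 M. The cause was not tested.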
